A study of Mus musculus with 27 samples.

Results

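Heat shock proteins and their DnaJ cochaperones were followed in mouse macrophages given a bacterial stimulus with and without a small molecule. A row of the count table was taken as a member when its symbol began with Hspd1, Hspe1, Hsph1 or Hsp90, or with Hspa, Hspb, Dnaja, Dnajb or Dnajc followed by a digit, and its biotype included protein coding. The rule uses names and biotypes. Of 55483 rows, 88 carried such a symbol, 15 of these lacked a protein-coding biotype, and 73 were members. The members were 14 genes of the Hsp70 and Hsp110 families, 3 of the Hsp90 family, 3 of the mitochondrial chaperonin family, 8 small heat shock proteins, and 4, 13 and 28 DnaJ proteins of types A, B and C.

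The cells were RAW264.7, an established mouse macrophage line, so each group is a model of 1 line. They were kept for 6 h in DMSO, the solvent, in LPS at 1 µg/ml with DMSO, or in LPS with TM7nox at 10 µM. The labels used here do not give the solvent of the TM7nox group, so TM7nox and a possible difference in solvent cannot be told apart. LPS is the lipopolysaccharide of Gram-negative bacteria. TM7nox is a tanshinone mimic, one of a group of small molecules made to interfere with the binding of HuR to RNA. No group received TM7nox without LPS. Each treatment had 4 libraries of total RNA, 4 of RNA recovered by immunoprecipitation with an antibody to HuR (RIP), and 1 from a control precipitation with IgG. The labels number the replicates 1 to 4 and do not say that they were separate cultures, so the p-values measure the spread between these samples, which may be technical. All 3 IgG libraries carry replicate number 3.

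Chaperones bind proteins that are not in their folded state. Hsp70 proteins hold and release such chains in a cycle driven by ATP. DnaJ proteins, also called Hsp40, carry a J domain that stimulates the ATPase of Hsp70 and bring it its clients, Hsp110 proteins exchange its nucleotide, and Hsp90 proteins act later on kinases and receptors. Hspa5 and Hsp90b1 work in the endoplasmic reticulum, and Hspa9, Hspd1 and Hspe1 in mitochondria. Heat shock factor 1 drives the cytosolic genes through heat shock elements in their promoters. The transcription factors of the unfolded protein response, among them ATF6 and XBP1, drive the endoplasmic reticulum genes, many through an element with the core CCAAT and CCACG. HuR, the product of Elavl1, is an RNA-binding protein that favours U-rich stretches, mostly in the 3' untranslated region (3' UTR), and is known in macrophages for its mRNAs of inflammatory mediators.

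Total counts per library ran from 2728534 to 27543656 in total RNA under DMSO, from 17361022 to 28285856 under LPS and from 16258731 to 26582325 under LPS with TM7nox. The shallowest was DMSO replicate 1. RIP libraries held 19816312 to 41449233 counts and the 3 IgG libraries 21172511, 24513902 and 8873091. Levels are counts per 1000000 (CPM) after scaling. Of 9 macrophage markers, Lyz2 and Cd14 were the most abundant in total RNA, with medians of 3110.0 and 1126 CPM, and Mertk stayed at or below 1.13 CPM. Their summed level was 5250 to 6316, 5036 to 6983 and 3373 to 6139 CPM in total RNA of the 3 treatments in the order above. The markers of T cells, B cells, neutrophils, fibroblasts, epithelium and endothelium, 18 genes in all, stayed at or below 3.25 CPM each in total RNA, where Ly6g, Epcam and Krt8 were at 0. The neutrophil list summed to at most 0.101 CPM under DMSO, 1.60 to 3.56 under LPS and at most 0.49 with TM7nox, and the endothelial list in the RIP to 0.69 to 1.48, 3.60 to 5.81 and 3.22 to 4.45 CPM; their part in the results was not tested. In bulk libraries, fewer cells of a type and less RNA per cell cannot be told apart.

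Of the 73 members, 58 passed the filter on low counts in total RNA, and 59 when both assays were fitted together. The 14 tested nowhere were Dnaja4, Dnajb3, Dnajb7, Dnajb8, Dnajc5b, Dnajc5g, Dnajc6, Hspa12a, Hspa1a, Hspa1l, Hspb1, Hspb2, Hspb3 and Hspb8. Each stayed at or below 0.524 CPM in every library, and Hspb2 had no count in any. Hspb1, the small heat shock protein of most heat-stressed cells, had 19 counts in the 27 libraries together. Some symbols share sequence with close copies, which the counting could have split. In the main transcript of Hspa8, 68.0% of the 75-base stretches also occurred in another gene, and the share was 49.3% for Hsp90aa1, 36.6% for Dnajb6, 33.7% for Hspd1, 23.7% for Hspe1 and 16.7% for Dnaja1. How reads that match more than 1 gene were counted was not stated, so the effect on the counts of these genes is not known. The heat-inducible pair Hspa1a (chr17:35188166-35191132, minus strand) and Hspa1b (chr17:35175412-35178214, minus strand) had 54.2% and 55.8% of their stretches in another gene. Hspa1a had 66 counts in 27 libraries, and the level given below for Hspa1b may hold reads of both.

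The members together took 1.38 ± 0.12% (SD, n = 4) of all counts in total RNA under DMSO, 1.55 ± 0.12% under LPS and 1.98 ± 0.14% under LPS with TM7nox. The lowest library with TM7nox, at 1.82%, lay above the highest LPS library, at 1.64%. Levels per kilobase use the exons of all annotated transcripts of a gene joined, which can be longer than its main mRNA. The order of genes below depends on that length. Per kilobase of exon, Hsp90ab1, the constitutive cytosolic Hsp90, had the highest level under DMSO, at 348 ± 29.8 CPM per kb. Hspa5, the Hsp70 of the endoplasmic reticulum also called BiP, followed at 184 ± 19.1, then Hspa8, the constitutive cytosolic Hsp70, at 164 ± 29.8 and Hsp90aa1, the inducible Hsp90, at 149 ± 12.2 CPM per kb. The levels of Hspa5, Hspa8 and Hsp90aa1 lay within the spread of their neighbours. Mitochondrial Hspa9 and Hspd1 and the endoplasmic reticulum Hsp90 gene Hsp90b1 stood at 116 ± 3.42, 107 ± 9.64 and 95.1 ± 7.36 CPM per kb. Under LPS the first 4 kept that order, with Hsp90ab1 at 549.5 ± 55.4 and Hspa5 at 325 ± 58.8 CPM per kb. With TM7nox, Hspa5 reached 665 ± 148 CPM per kb beside 648 ± 42.6 for Hsp90ab1, a pair that did not differ beyond their spread.

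**Figure D1:**
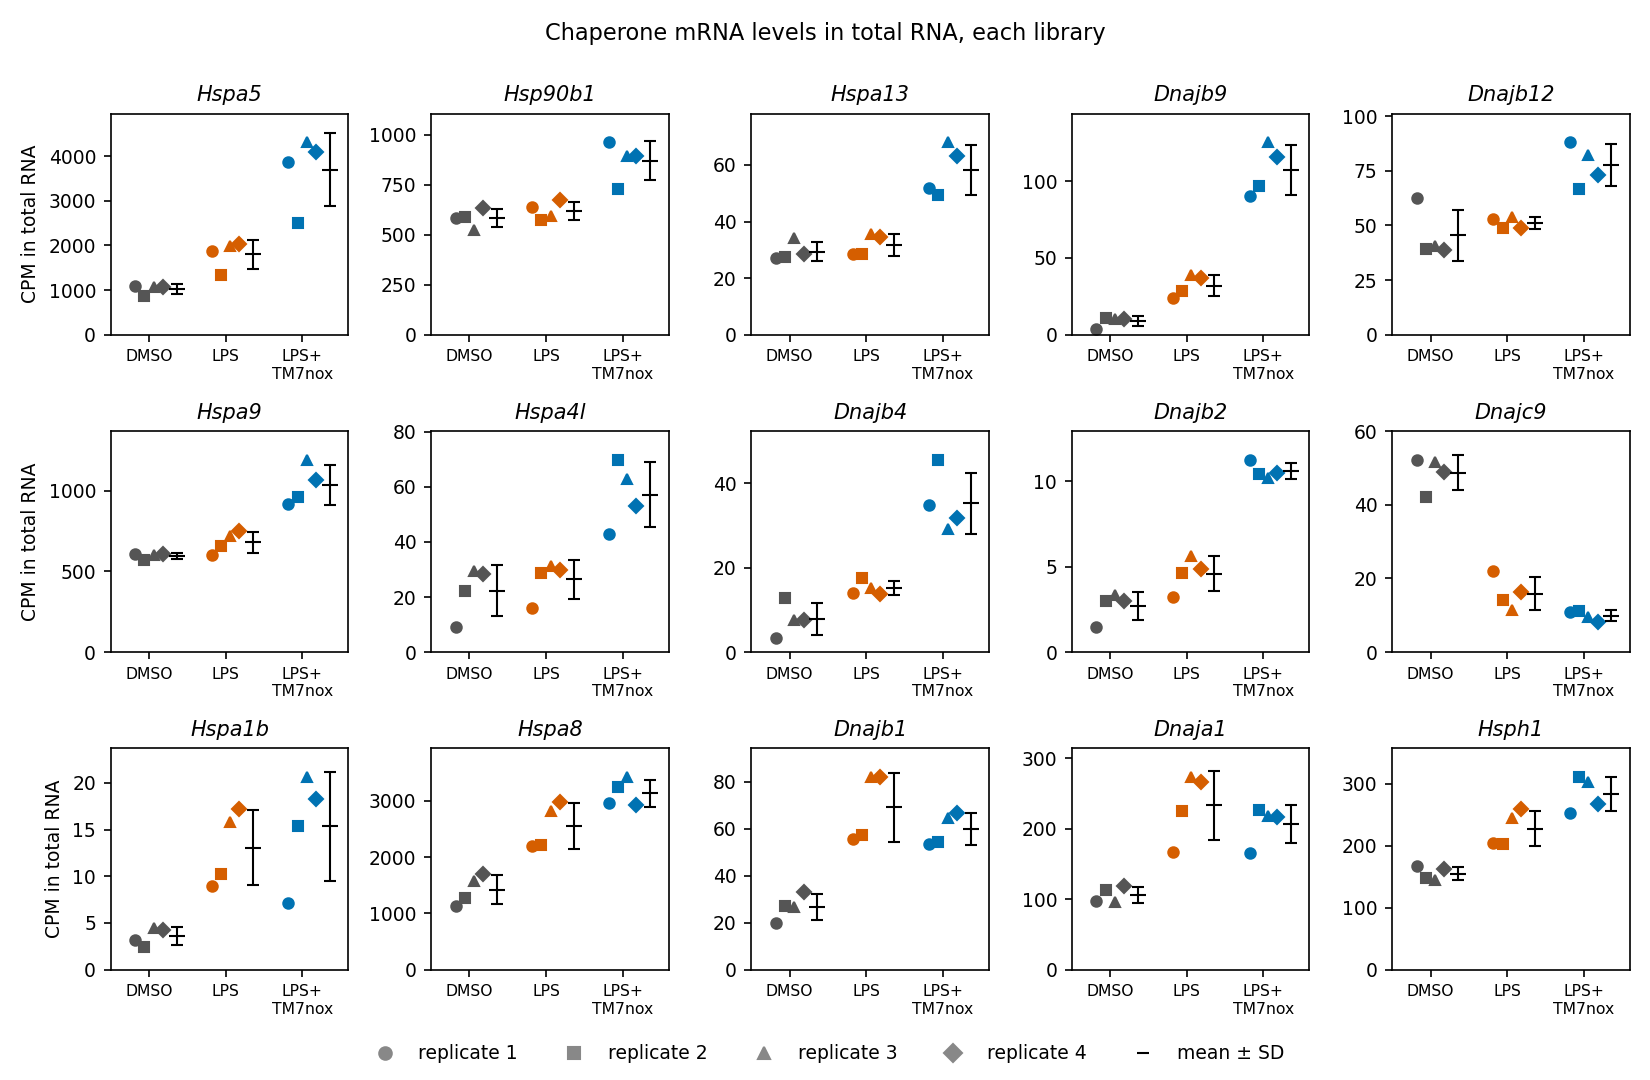
Levels of single chaperone genes in the 12 total RNA libraries, in CPM on a linear axis from 0; each point is 1 library, and the bar is the mean of 4 with its SD. Hspa5 was highest in the 4 libraries with TM7nox, each at or above 2490.3 CPM, and Dnajc9 was lowest there.

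The first question was what LPS did to these mRNAs. In total RNA, LPS raised several cytosolic chaperones that heat shock factor is known to drive, together with the endoplasmic reticulum genes Hspa5 and Dnajb9, and lowered a group of DnaJ genes led by Dnajb14 and Dnajc9. Of 58 members tested, 25 passed a false discovery rate (FDR) under 0.05, 17 higher and 8 lower. Over all genes tested, 42% passed, 20.2% higher and 21.7% lower, so the share of members, 43.1%, lay near the background, while more of the members' calls were higher than lower. The median log2 fold change was 0.16 over the members and -0.04 over all genes. By class, 4 of 11 Hsp70 and Hsp110 genes rose and 1 fell, 2 of 3 Hsp90 genes rose, 6 of 10 type B DnaJ genes rose and 1 fell, and 2 of 3 type A genes rose and 1 fell. Among the 25 type C genes, 3 rose and 4 fell, and none of the 3 chaperonin genes passed.

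Hspa1b stood at 3.21, 2.42, 4.49 and 4.23 CPM in DMSO replicates 1 to 4 and at 8.98, 10.3, 15.8 and 17.2 CPM under LPS. All 4 LPS libraries lay above all DMSO libraries, and the log2 fold change was 1.80 ± 0.32 (SE, n = 4 against 4, FDR 3.93e-04). Dnajb1, the type B cochaperone that heat shock induces with Hsp70, went from 19.7, 27.1, 26.6 and 33.0 CPM to 55.7, 57.2, 81.9 and 81.9 CPM, a log2 fold change of 1.31 ± 0.16 (FDR 1.80e-05). Dnaja1, a type A cochaperone of cytosolic Hsp70, went from 96.9, 113, 96.0 and 118 to 167, 225, 273 and 266 CPM, with a log2 fold change of 1.08 ± 0.15 (FDR 5.31e-05). In neither gene did the groups overlap.

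The abundant cytosolic chaperones rose less. Hspa8 was at 1138, 1275, 1575 and 1696 CPM under DMSO and at 2199, 2219.7, 2820.2 and 2976 CPM under LPS (log2 fold change 0.79 ± 0.15, FDR 7.96e-04). The changes were 0.60 ± 0.13 for Hsp90ab1 (FDR 0.00202), 0.52 ± 0.13 for Hsp90aa1 (FDR 0.00410) and 0.49 ± 0.12 for Hsph1 (FDR 0.00343), the Hsp110 that exchanges nucleotide on Hsp70. Of the 12 genes listed as heat shock factor targets, 10 were tested, 7 rose and 0 fell, with a median log2 fold change of 0.56. The 3 tested targets that did not pass were Hspd1 at -0.15, Hspe1 at 0.24 and Hspa4l at 0.16. On library totals alone, without a scaling factor, 4 of the 10 were higher and 1 lower, with a median of 0.27 where all genes had -0.32. On that scale the calls of Hsp90aa1 (0.23), Hsp90ab1 (0.31), Hsph1 (0.20) and Hspa5 (0.46) were lost, and Hspd1 was called lower (-0.45).

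A heat shock element of 3 units, GAA and TTC in turn starting with either and each 2 bases apart, searched on both strands, lay in the promoter window of 4 of the 58 members that had one, Dnajb6, Hspd1, Hspe1 and Hsph1. Windows ran from 250 bases before to 50 after each start in RefSeq (GRCm38.p6), and 0.603% of all 32851 windows held the element. The shorter form of 2 such units, which is part of the longer one, occurred in 15.1% of windows and in 16 members, among them Hspa1a, Hspa1b and Dnaja1. The window of Hsph1, a gene that rose, shows the longer form in capitals, 15 bases after the start (chr5:149636266-149636565, minus strand, given in the sense of the gene). The match is a description of these letters and no measure of binding.
Hsph1: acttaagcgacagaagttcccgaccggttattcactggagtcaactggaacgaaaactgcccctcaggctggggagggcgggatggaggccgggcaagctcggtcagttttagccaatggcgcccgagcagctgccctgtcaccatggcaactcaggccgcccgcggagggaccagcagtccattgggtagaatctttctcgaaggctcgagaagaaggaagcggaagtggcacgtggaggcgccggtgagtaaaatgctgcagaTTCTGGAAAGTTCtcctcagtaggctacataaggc

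The endoplasmic reticulum genes split under LPS. Hspa5 (chr2:34661982-34668880, plus strand in GRCm39) was at 1089.6, 865, 1064 and 1077 CPM under DMSO and at 1865, 1327, 1993 and 2033 CPM under LPS (log2 fold change 0.76 ± 0.19, FDR 0.00522). Dnajb9 (chr12:44252341-44257171, minus strand), a DnaJ protein of the endoplasmic reticulum that XBP1 induces, was at 3.85, 11.1, 10.1 and 10.3 and at 24.03, 28.2, 38.8 and 36.7 CPM (log2 fold change 1.74 ± 0.23, FDR 2.88e-05). Every LPS library exceeded every DMSO library for both. Dnajc1, a DnaJ protein of the endoplasmic reticulum membrane, also rose, by 0.62, whereas Hsp90b1 had 0.03 ± 0.12 (FDR 0.851) and Dnajb11, a luminal partner of Hspa5, -0.08 ± 0.14 (FDR 0.695). Of the 10 genes listed for this compartment, 3 rose and 1 fell, with a median of 0.05. The mitochondrial list of 9 had 0 higher and 1 lower, Dnaja3, at -0.54 ± 0.16; Hspa9 stood at 0.13 ± 0.12 (FDR 0.399).

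Other type B genes also rose. Dnajb5 changed by 1.20 ± 0.25 (FDR 0.00150), Dnajb4 by 0.82, Dnajb6, a suppressor of protein aggregation, by 0.71 and Dnajb2 by 0.64 on the log2 scale. Dnajc13, a protein of endosomes, rose by 0.65, Dnaja2 by 0.61 and Dnajc14 by 0.39. Of the 25 members called, 22 (88%) had groups that did not overlap, beside 84.2% of the 5190 genes called in all; the exceptions were Dnaja3, Dnajb2 and Dnajc14.

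The members that fell include both partners of Hsp70 and an Hsp70 itself. Dnajb14, a DnaJ protein anchored in the endoplasmic reticulum membrane, was at 27.8, 32.6, 29.1 and 32.2 CPM under DMSO and at 8.28, 12.8, 8.57 and 10.2 CPM under LPS (log2 fold change -1.67 ± 0.23, FDR 4.52e-05). Dnajc9 (chr14:20434706-20438995, minus strand), which chaperones histones, went from 52.2, 42.1, 51.7 and 49.0 to 21.9, 14.1, 11.4 and 16.3 CPM (log2 fold change -1.67 ± 0.19, FDR 9.68e-06). The highest LPS library of each lay below the lowest DMSO library. Dnajc22 changed by -1.31 ± 0.48 (FDR 0.0401), Hspa14, an Hsp70 associated with ribosomes, by -0.92 ± 0.14 (FDR 1.41e-04), and Dnajc2 by -0.35. Dnajc27 had -0.60 ± 0.21 (FDR 0.0341), a call lost without DMSO replicate 1 (-0.42) or any 1 of the 4 LPS libraries (-0.56 to -0.64). The small heat shock protein gene Hspb6 had 8.99, 2.77, 3.05 and 2.13 CPM under DMSO and 0.998, 1.149, 1.20 and 0.770 under LPS. Its log2 fold change of -1.999 ± 0.47 (FDR 0.00338) became -1.40, still called, without the shallow DMSO replicate 1.

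Genes that work with the members were listed as partners. All 8 subunits of TRiC, the cytosolic chaperonin, had positive values (5 of 8 on library totals alone, 1 called), and 4 rose, with Cct3 at 0.81 ± 0.13 (FDR 2.22e-04). Among 15 Hsp70 partners, 1 rose and 4 fell: Grpel1, the mitochondrial nucleotide exchange factor that was the one to rise, had 0.59, and Bag2, a regulator of Hsp70, -2.12 on the log2 scale. Stub1, the ubiquitin ligase that tags Hsp70 clients, fell by 0.89. Of 8 Hsp90 partners, 2 rose and 1 fell, with Chordc1 at 0.68 and Fkbp4 at -0.38. Hsf1, the gene of heat shock factor 1, fell by 0.42 (FDR 0.0413).

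Scaling and replicates limit this comparison. The split of calls turned to 7 higher and 11 lower on library totals alone, where all genes turned the same way, to 13.2% higher and 34.4% lower. None of the 25 called members changed sign on that scale, and Dnaja2, Dnajb2, Dnajb4, Dnajb6, Dnajc1 and Dnajc14 lost their calls beside those named above. In replicates 1 and 2 alone 7 members were called beside 13.4% of all genes.

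**Figure D2:**
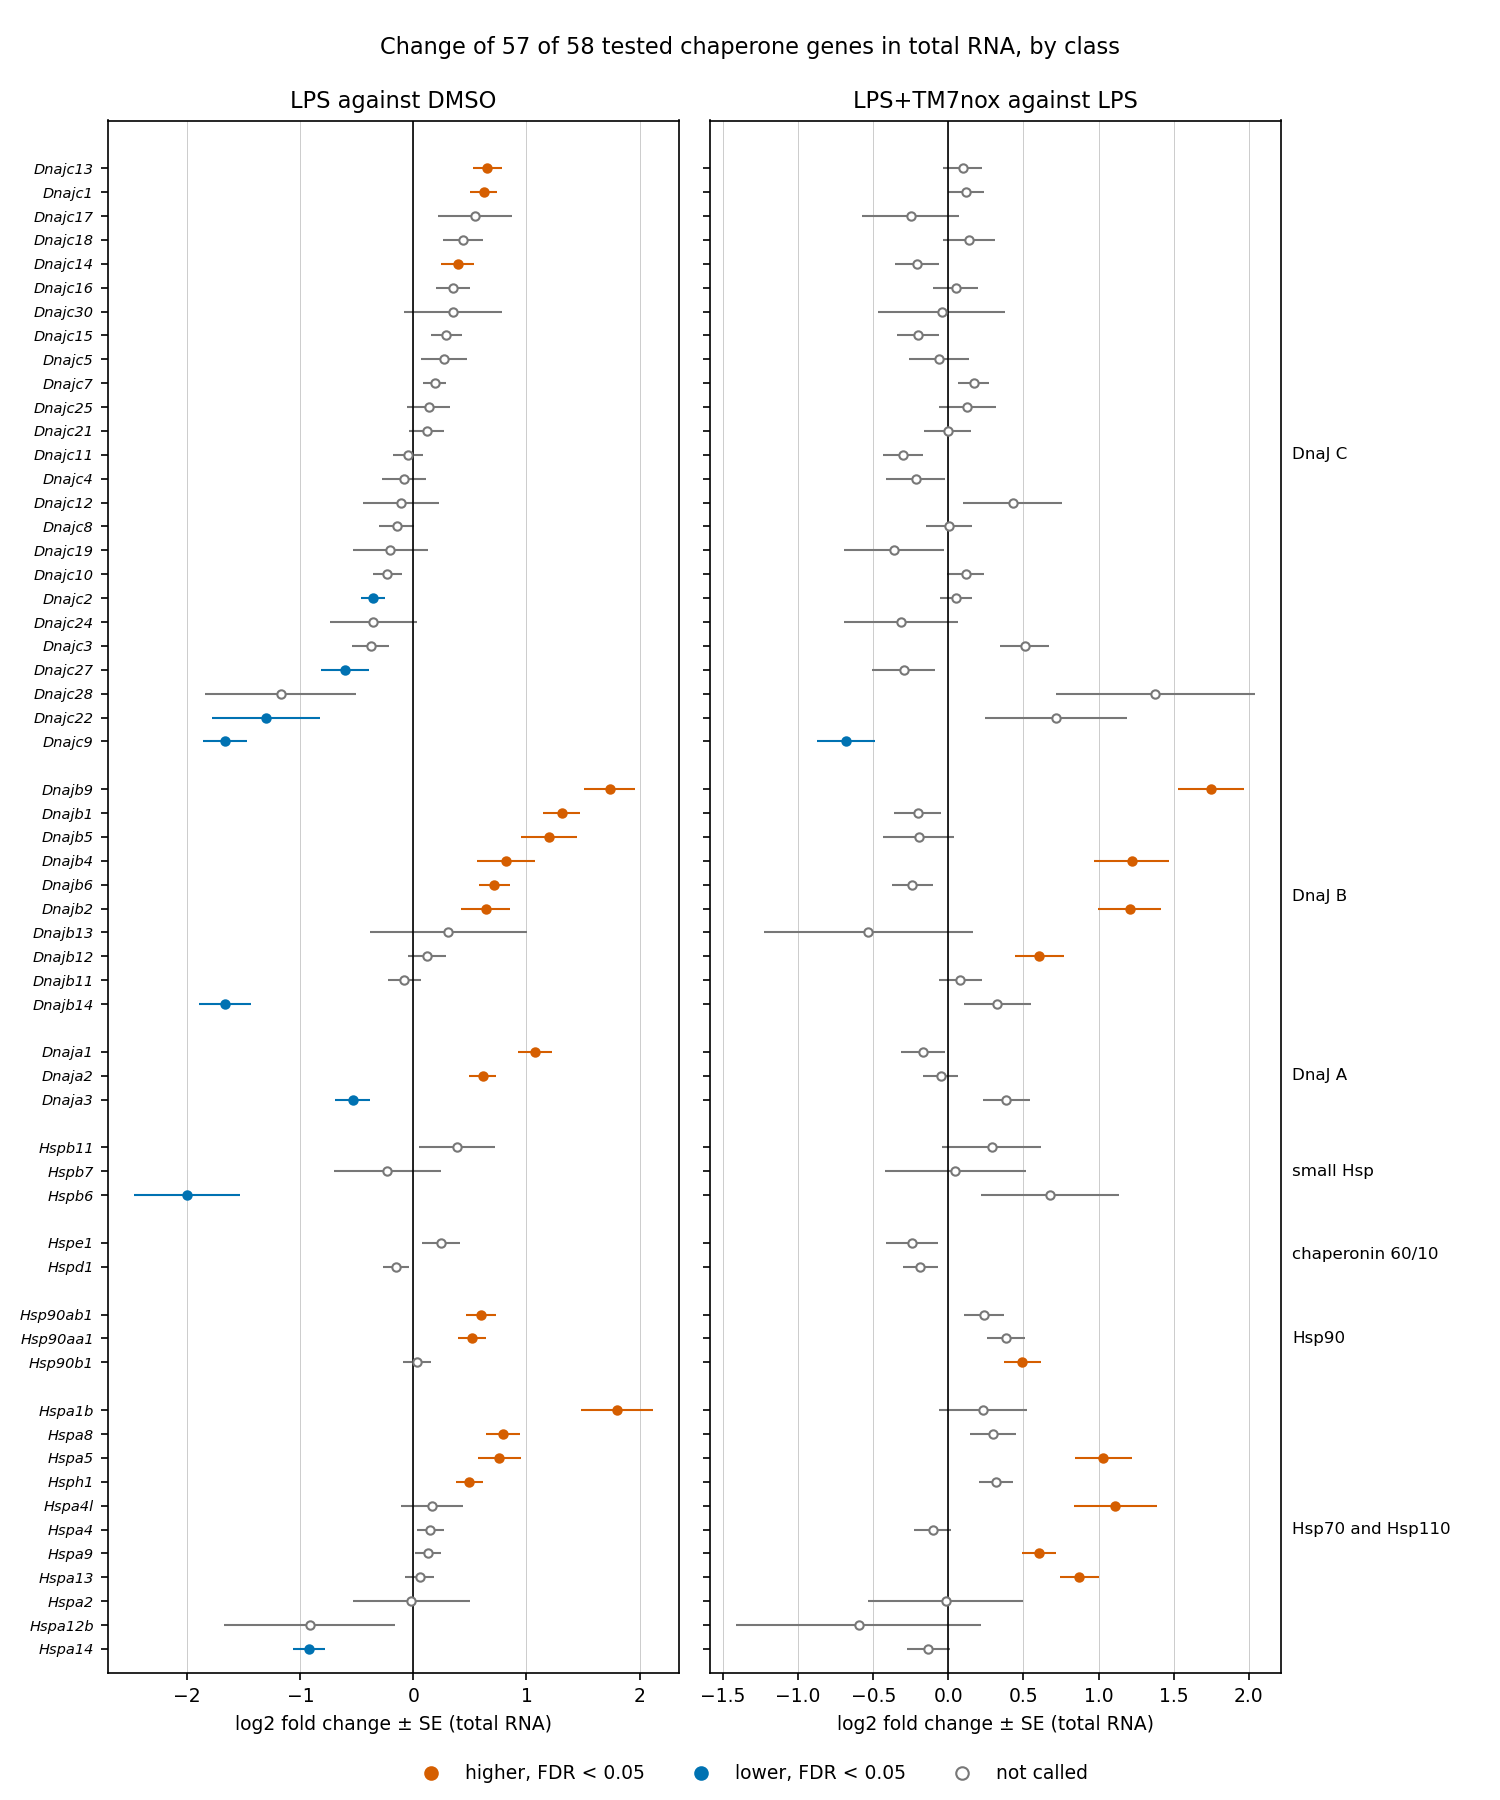
Log2 fold change with its SE for 57 of the 58 tested members in total RNA, LPS against DMSO and LPS with TM7nox against LPS, ordered by class; filled points passed FDR under 0.05. Under LPS 17 genes were called higher and 8 lower; with TM7nox added, 9 higher and 1 lower.

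The next question was what TM7nox added to LPS. The genes that rose were mostly those of the endoplasmic reticulum: Hspa5, Dnajb9, Hspa13, Hsp90b1 and Dnajb12 all increased, beside Dnajb4, Dnajb2, Hspa4l and Hspa9, and Dnajc9 fell further. Of the 58 members tested in total RNA, 10 were called, 9 higher and 1 lower. In all 10 the 4 libraries with TM7nox did not overlap the 4 with LPS alone, as in 92.4% of the 1704 genes called in all. Over all genes, 13.8% were called, 7.37% higher and 6.4% lower, and the members' share was 17.2%. The median log2 fold change was 0.06 over the members and 0.00 over all genes. The endoplasmic reticulum list was drawn up with earlier results of these data known, so its counts describe the genes chosen. In it, 5 of 10 rose, 0 fell and 10 of 10 were positive, with a median of 0.50. Without a scaling factor 3 of these 10 were higher and 0 lower, again with 10 of 10 positive and a median of 0.46; Hsp90b1 (0.45) and Dnajb12 (0.57) then lost their calls.

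Hspa5 reached 3873, 2490.3, 4304 and 4098 CPM with TM7nox, above the 1865, 1327, 1993 and 2033 CPM of LPS alone. The log2 fold change was 1.03 ± 0.19 (FDR 0.00243), or 2.05-fold. Replicate 2 was the lowest of its group in all 3 treatments. Dnajb9 stood at 90.03, 97.0, 125 and 116 CPM with TM7nox, all above the LPS libraries given before, a log2 fold change of 1.75 ± 0.22 (FDR 1.48e-04), the highest of the members. The protein of Dnajb9 binds Hspa5 and the stress sensor IRE1. Hsp90b1 (chr10:86526073-86541446, minus strand) was at 638, 572, 596 and 673 CPM under LPS and at 961, 729, 896 and 896 CPM with TM7nox. The groups were separate, with a log2 fold change of 0.49 ± 0.12 (FDR 0.0168), and the call was lost without LPS replicate 2, LPS replicate 3 or TM7nox replicate 4, at 0.45, 0.47 and 0.47.

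Hspa13 (chr16:75542319-75563992, minus strand), an Hsp70 of microsomes, went from 28.5, 28.5, 35.5 and 34.6 to 52.0, 49.4, 67.9 and 63.1 CPM (log2 fold change 0.87 ± 0.13, FDR 5.22e-04). Dnajb12 (chr10:59715378-59736396, plus strand), a membrane DnaJ protein that serves the removal of misfolded proteins, went from 53.0, 48.7, 53.7 and 48.7 to 88.0, 66.8, 82.5 and 73.2 CPM (log2 fold change 0.61 ± 0.16, FDR 0.0252). Neither of these genes had passed the test between LPS and DMSO, where their values were 0.06 and 0.12. For Dnajb12 the shallow DMSO replicate 1 stood above the others, at 62.7 CPM against 38.93 to 40.66, and replicates 3 and 4 alone gave a called value of 0.35 (FDR 0.00941, edgeR). The other 5 genes of the list had positive values that did not pass: Dnajc3, an inhibitor of the kinase PERK that works in the lumen, 0.51 ± 0.16 (FDR 0.0559), Dnajc10 0.11, Dnajb14 0.33, Dnajb11 0.08 and Dnajc1 0.12. With replicate number as a block, Dnajc3 was called at 0.49. Hyou1, the large Hsp70 relative of this compartment and no member, also rose, by 0.67 ± 0.18 (FDR 0.0248).

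The endoplasmic reticulum stress element, CCAAT and CCACG with 9 bases between them, searched on both strands, was found in the promoter windows of 3 members, Hspa5, Hsp90b1 and Dnajc3. It occurred in 0.119% of the 32851 windows, in 37 of 27025 genes. Its first base lay 65 bases before the start in Hspa5 and 105 in Dnajc3, and Hsp90b1 held 2 matches, 212 and 107 bases before, the second on the opposite strand. The windows of the 3 genes, from RefSeq on GRCm38.p6 and in the sense of each gene, are shown because they are the only members' windows with the element, and 2 of the 3 genes rose with TM7nox. Capitals mark the element. The windows are chr2:34771840-34772139, plus strand, for Hspa5, chr10:86705395-86705694, minus strand, for Hsp90b1, and chr14:118937682-118937981, plus strand, for Dnajc3.
Hspa5: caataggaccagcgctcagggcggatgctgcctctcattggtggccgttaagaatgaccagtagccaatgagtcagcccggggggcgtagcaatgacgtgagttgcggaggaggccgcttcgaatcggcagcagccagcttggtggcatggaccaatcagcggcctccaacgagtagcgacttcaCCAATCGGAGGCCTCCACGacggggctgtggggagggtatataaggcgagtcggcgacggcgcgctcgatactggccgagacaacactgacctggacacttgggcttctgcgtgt
Hsp90b1: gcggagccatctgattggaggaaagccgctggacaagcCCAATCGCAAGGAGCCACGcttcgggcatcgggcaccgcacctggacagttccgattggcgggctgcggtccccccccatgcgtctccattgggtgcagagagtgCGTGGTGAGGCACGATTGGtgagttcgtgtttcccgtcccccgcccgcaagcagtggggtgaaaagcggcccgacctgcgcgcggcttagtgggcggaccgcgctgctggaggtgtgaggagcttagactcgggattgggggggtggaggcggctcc
Dnajc3: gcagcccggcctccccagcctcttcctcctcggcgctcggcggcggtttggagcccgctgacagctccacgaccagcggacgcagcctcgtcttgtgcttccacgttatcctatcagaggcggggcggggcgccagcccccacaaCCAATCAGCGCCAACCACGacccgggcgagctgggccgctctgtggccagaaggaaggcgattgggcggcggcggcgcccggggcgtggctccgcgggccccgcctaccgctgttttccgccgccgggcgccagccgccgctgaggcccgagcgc
A match shows these letters and says nothing of a factor at the site. Dnajb9 and Dnajb12, which rose as well, held no exact match within their windows.

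Genes outside the endoplasmic reticulum followed. Dnajb4 (chr3:151884148-151916665, minus strand), a cytosolic cochaperone, was at 14.0, 17.5, 15.2 and 13.8 CPM under LPS and at 34.7, 45.5, 29.1 and 31.7 CPM with TM7nox (log2 fold change 1.22 ± 0.25, FDR 0.00514). Dnajb2 (chr1:75212712-75222340, plus strand), which hands clients of Hsp70 to the proteasome, went from 3.21, 4.63, 5.64 and 4.87 to 11.2, 10.4, 10.2 and 10.5 CPM (log2 fold change 1.21 ± 0.21, FDR 0.00149). Hspa4l (chr3:40698643-40750538, plus strand), an Hsp110, went from 16.0, 28.8, 31.4 and 29.9 to 42.9, 69.8, 62.9 and 53.2 CPM (log2 fold change 1.11 ± 0.28, FDR 0.0151). The lowest library with TM7nox lay above the highest LPS library in all 3 genes. Hspa9, the mitochondrial Hsp70, rose from 681 ± 66.4 to 1034 ± 122 CPM (SD, n = 4), a log2 fold change of 0.60 ± 0.12 (FDR 0.00317), while its mitochondrial neighbours Hspd1 and Hspe1 had -0.19 and -0.24 and were not called.

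The heat shock factor targets that LPS had raised did not pass again. Of the 10 tested, 1 rose with TM7nox, Hspa4l, and 0 fell, with a median of 0.23. Hspa1b stood at 7.16, 15.4, 20.6 and 18.2 CPM (log2 fold change 0.23 ± 0.29, FDR 0.688), and Dnajb1 and Dnaja1 had -0.20 ± 0.16 and -0.17 ± 0.15. The values were 0.38 ± 0.13 for Hsp90aa1 (FDR 0.0572), 0.30 ± 0.15 for Hspa8, 0.32 ± 0.12 for Hsph1 and 0.24 ± 0.13 for Hsp90ab1. With replicate number as a block, Hsp90aa1, Hsph1 and Hspa8 were called higher, at 0.38, 0.32 and 0.31. Hsp90aa1 was also called without DMSO replicate 1, at 0.38. Hsf2, a second heat shock factor gene, rose by 0.84 ± 0.18 (FDR 0.00658); Hsf1 had 0.15 and was not called.

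Dnajc9 was the member that fell. Its libraries with TM7nox were at 10.9, 11.3, 9.46 and 8.13 CPM, below the 21.9, 14.1, 11.4 and 16.3 CPM of LPS alone, a log2 fold change of -0.68 ± 0.19 (FDR 0.0295). Without LPS replicate 1 the value was -0.47 and not called, and the call was also lost without LPS replicate 4 (-0.68) or TM7nox replicate 3 (-0.65) or 4 (-0.60). Dnajc9 overlaps Fam149b on the genome, Dnajb4 overlaps Fubp1 and Hspa5 overlaps Rabepk on the other strand, and whether reads were counted by strand was not stated. Among the partners, Gak, a J-domain kinase that uncoats clathrin vesicles, rose by 0.45 and Fkbp5, an Hsp90 cochaperone, fell by 0.62, while 0 of 8 TRiC subunits passed.

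The replicates bear on how many members were called. With replicate number as a block, 17 members passed, 14 higher and 3 lower, beside 25% of all genes. Replicates 1 and 2 alone gave 1 member, Dnajb9, beside 1.35% of genes, and replicates 3 and 4 alone gave 17 beside 27.9%.

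Set against DMSO, the cells with LPS and TM7nox had most of their called members on the high side; this comparison shares its libraries with the ones above and adds no separate evidence. Of 58 members, 32 were called, 24 higher and 8 lower, where 47.3% of all genes were called, 23.7% higher and 23.6% lower. The median was 0.28 over the members and -0.01 over all genes. Dnajb9 had the highest log2 fold change at 3.48 ± 0.24 (FDR 7.02e-08), an 11.2-fold difference, followed by Dnajb4 at 2.04 ± 0.26, Hspa1b at 2.03 ± 0.32, Dnajb2 at 1.85 ± 0.22 and Hspa5 at 1.79 ± 0.20. All 3 Hsp90 genes rose: Hsp90aa1 by 0.90, Hsp90ab1 by 0.84 and Hsp90b1 by 0.53. Hspa8, Hsph1, Dnaja1 and Dnajb1 rose by 1.09, 0.81, 0.91 and 1.11, and mitochondrial Hspa9 by 0.73. Dnaja3, Dnajc14 and Dnajc22, which were called for LPS alone, did not pass here, at -0.15 ± 0.16, 0.18 ± 0.15 and -0.59 ± 0.47 (FDR 0.455, 0.329 and 0.321).

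The lowest value against DMSO was that of Dnajc9, at -2.35 ± 0.20 (FDR 4.21e-07), and Dnajb14, Hspa14 and Dnajc27 fell by 1.34, 1.06 and 0.90. Hspd1, the mitochondrial Hsp60, had -0.34 ± 0.12 (FDR 0.0274), a call lost without TM7nox replicate 1 or 4 or DMSO replicate 3 or 4, at -0.26 to -0.31. Its partner Hspe1 was at 0.00. Hspb6 had -1.32 ± 0.46 (FDR 0.0285), and was not called without DMSO replicate 1 (-0.72) or without TM7nox replicate 1, 3 or 4 (-1.11 to -1.32). On library totals alone the split was 17 higher and 12 lower, with all genes at -0.33, and Hsp90b1 was no longer called (0.20). The share of all genes called on that scale is not given here, so this split cannot be read against a background. Replicates 1 and 2 alone called 17 members beside 18% of all genes.

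The third question was which of these mRNAs came down with HuR. RIP levels were set against total RNA of the same treatment, after TMM scaling, so 0 on the log2 scale stands for a gene that keeps pace with most other genes and not for an equal share of the counts. The most abundant chaperone mRNAs were low in the precipitate, among them Hspa5, Hsp90b1, Hspd1, Hspe1, Hspa8 and Hsp90aa1, and a smaller set was high, among them Dnajc18, Dnajc25, Hspa2, Hspa12b, Dnajc22, Dnajb12 and Dnaja3. Under DMSO, 47 of 59 members were called, 14 higher and 33 lower, where 70.4% of all genes were called, 37% higher and 33.4% lower. The median was -0.91 over the members and 0.04 over all genes. Under LPS 44 were called, 13 higher and 31 lower (all genes 63.7%, 32.9% and 30.8%). With TM7nox 44 were called, again 13 and 31 (all genes 69.9%, 35.2% and 34.8%). The medians were -0.73 and -0.86 over the members and -0.06 and -0.09 over all genes. The splits without a scaling factor were 8 and 42, 7 and 45, and 8 and 45, where all genes had 26.4% higher and 49.7% lower, 19.8% and 56.8%, and 23.2% and 55.2%, with medians of -0.72, -1.06 and -1.07. With DESeq2's size factors the splits were 14 and 31, 13 and 29, and 16 and 28, with all genes at 0.19, 0.11 and 0.13. The shares of all genes called with those factors are not given here, so these last splits have no background beside them.

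The stretches below show the most U-rich 30 bases in the 3' UTR of 7 members, printed as DNA in the sense of the transcript, with runs of 4 or more T in capitals. The first 3 genes were high in the RIP, Dnajb9 was higher only after scaling, and the last 3 were low; they are shown to set the letters beside those values. In GRCm39 they lie at chr4:59023860-59023889, plus strand (Dnajc25), chr12:76453243-76453272, plus strand (Hspa2), chr16:4524960-4524989, plus strand (Dnaja3), chr12:44252459-44252488, minus strand (Dnajb9), chr2:34668660-34668689, plus strand (Hspa5), chr10:86526791-86526820, minus strand (Hsp90b1) and chr9:40716460-40716489, plus strand (Hspa8).
Dnajc25: tcTTTTTTTTTTTTTTcTTTTTTggTTTTT
Hspa2: tttcTTTTcTTTTTTcTTTTTTTTTTTTTT
Dnaja3: TTTTTTTTgTTTTTggggTTTTTTTTTTTT
Dnajb9: TTTTctacaaTTTTTgtgtatttgcTTTTT
Hspa5: TTTTcTTTTTcTTTTTTTacTTTTTTTTTT
Hsp90b1: tggTTTTTTTagttgaaTTTTTTTTaacat
Hspa8: gtaacatggaataataaaactatttaaatt
They hold 26, 27, 25, 20, 26, 19 and 10 U in that order. The 3' UTRs are 2890, 503, 884, 1395, 2755, 262 and 83 bases long, and a longer one offers more windows to choose from. Hspa5 has a stretch as U-rich as that of Dnajc25 and was low in the precipitate.

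Dnajc25 (chr4:58995062-59025573, plus strand), a membrane DnaJ protein, was at 4.49, 8.04, 7.14 and 9.19 CPM in total RNA under DMSO and at 44.0, 49.9, 56.1 and 54.3 CPM in the RIP. The log2 ratio was 2.88 ± 0.19 (FDR 1.46e-12), and it was 2.95 under LPS and 2.92 with TM7nox. The lowest RIP library lay well above the highest RNA library. Dnajb12 was at 200.1, 127, 184 and 149.9 CPM in the RIP under DMSO, with ratios of 2.01 ± 0.16, 2.06 ± 0.16 and 2.30 ± 0.17 in the 3 treatments. Dnaja3, the mitochondrial DnaJ partner of Hspa9, had 1.69 ± 0.16, 1.90 ± 0.16 and 2.17 ± 0.17. The ratios were 2.89, 2.57 and 3.15 for Hspa2, an Hsp70 best known from the testis that was at or below 2.30 CPM in total RNA, and 2.79, 3.13 and 2.998 for Hspa12b, a distant Hsp70. Dnajc22 had 2.10, 2.21 and 1.98, and Dnajc18 2.95, 2.15 and 2.48. Hspa12b and Dnajc22 were scarce in total RNA. Hspa12b was at 0.068 ± 0.047, 0.042 ± 0.033 and 0.028 ± 0.024 CPM per kb (SD, n = 4) in the 3 treatments. Dnajc22 was at 0.30 ± 0.087, 0.12 ± 0.052 and 0.19 ± 0.092 CPM per kb. The SE of the ratio of Hspa12b under LPS was 0.57.

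The 2 endoplasmic reticulum genes that responded most to TM7nox differed in the RIP. Dnajb9 was higher there than in total RNA, at 0.95 ± 0.28, 0.68 ± 0.27 and 0.90 ± 0.27, but its direction depended on the scaling: on library totals alone it had 0.22, -0.33 and -0.06, none called. Hspa5 was lower, at -2.89 ± 0.27, -2.22 ± 0.26 and -2.42 ± 0.27 (FDR 7.85e-10 under DMSO), with 122, 104, 148 and 130.4 CPM in the RIP under DMSO beside the total RNA values given above. Hspa13 was higher, at 1.12, 0.82 and 1.35, or 0.34, -0.19 and 0.38 on library totals, again with no call. Hsp90b1 was lower, at -2.75, -2.35 and -2.41. The endoplasmic reticulum list as a whole had 4 higher and 4 lower of 10 in each treatment, and on library totals 2, 1 and 1 higher and 6 lower in each.

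The heat shock factor targets lay on the low side, and so did most mitochondrial genes, with Dnaja3 on the high side. Of the 9 mitochondrial genes, 6, 6 and 7 were lower in the 3 treatments and 1 was higher in each, Dnaja3, at 1.69, 1.90 and 2.17. Of the 10 tested targets, 9, 9 and 7 were lower in the 3 treatments and 0 higher. Hspa8 had ratios of -2.03 ± 0.23, -1.85 ± 0.23 and -1.78 ± 0.23, and Hsp90aa1 -2.01 ± 0.17, -1.41 ± 0.17 and -1.35 ± 0.17. Hsp90ab1 had smaller differences, of -1.07 ± 0.22, -0.83 ± 0.22 and -0.28 ± 0.22, and was not called with TM7nox (FDR 0.258). Hspa1b, at -1.30, -0.88 and -0.46, was called under DMSO and LPS; with TM7nox it had FDR 0.241 and was called with the replicate block, at -0.47. Its call under LPS was lost without RIP replicate 1 or 2 or RNA replicate 3 or 4 of that group, at -0.66 to -0.79. Hspd1 and Hspe1 stood at -2.12 and -2.09 under DMSO, and Dnaja1, Dnajb1 and Hsph1 at -1.48, -1.61 and -1.13. All 8 TRiC subunits were lower under DMSO and under LPS, and 7 with TM7nox.

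**Figure D3:**
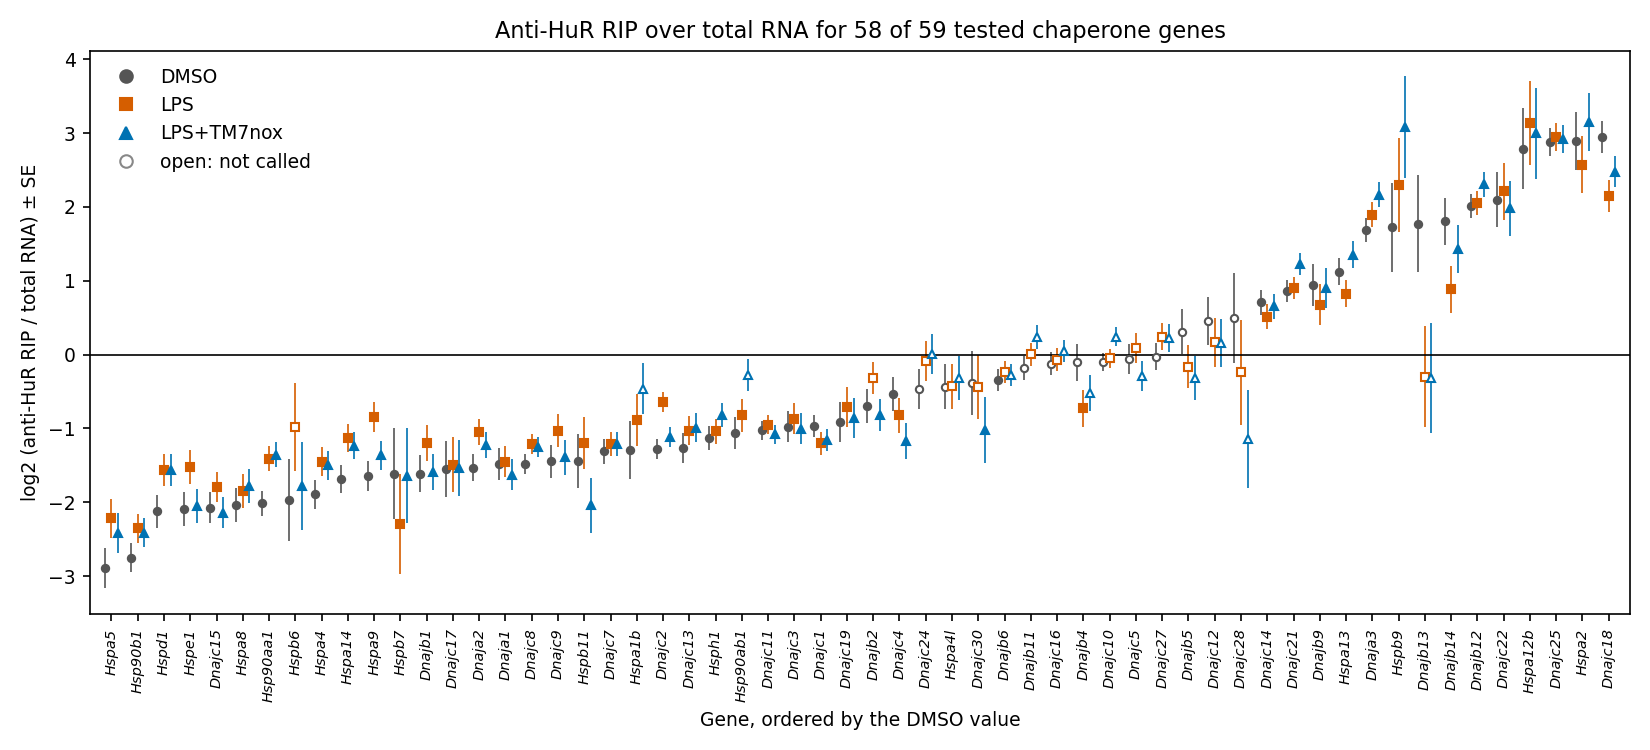
Log2 ratio of anti-HuR RIP to total RNA with its SE for 58 of the 59 tested members under DMSO, LPS and LPS with TM7nox; 0 stands for a gene that keeps pace with most others after TMM scaling, not for an equal share of counts. Dnajc25 stood near 2.9 in all 3 treatments and Hspa5 between -2.89 and -2.22.

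Over the treatments, 13 members (22% of 59) were higher in all 3 and 28 (47.5%) lower in all 3, where 30.1% of all genes were higher in all 3 and 27% lower. The 13 were Dnaja3, Dnajb9, Dnajb12, Dnajb14, Dnajc14, Dnajc18, Dnajc21, Dnajc22, Dnajc25, Hspa2, Hspa12b, Hspa13 and Hspb9. On library totals alone Dnajb9, Dnajb14, Dnajc14, Dnajc21 and Hspa13 had values below 0 under LPS, Dnajb9 and Dnajc14 also with TM7nox and Dnajc14 also under DMSO, whereas each of the 28 kept its direction and its call. Hspb9, at 0.223 ± 0.202 CPM in total RNA and 0.821 ± 0.351 in the RIP under DMSO, passed the filter on low counts only through the RIP, where it is the higher, a filter that favours its call. Hspb7 is the reverse case among the 28: it passed only through total RNA. The most U in any 30 bases of the 3' UTR had a median of 22.5 over the 14 members higher under DMSO, 18 over the 32 lower ones with a UTR of at least 50 bases, and 19.5 over the 12 not called. Across the 58 members with such a UTR, the ratio under DMSO and that count had Pearson's r of 0.33 and Spearman's rho of 0.36; across 10985 coding genes r was 0.55 and rho 0.54. These are descriptions across genes of the same libraries, which also share 3' UTR length and base composition, and genes are not independent replicates. With 3' UTR length (log2) the members' r was 0.26, and with the percentage of U it was -0.14.

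**Figure D4:**
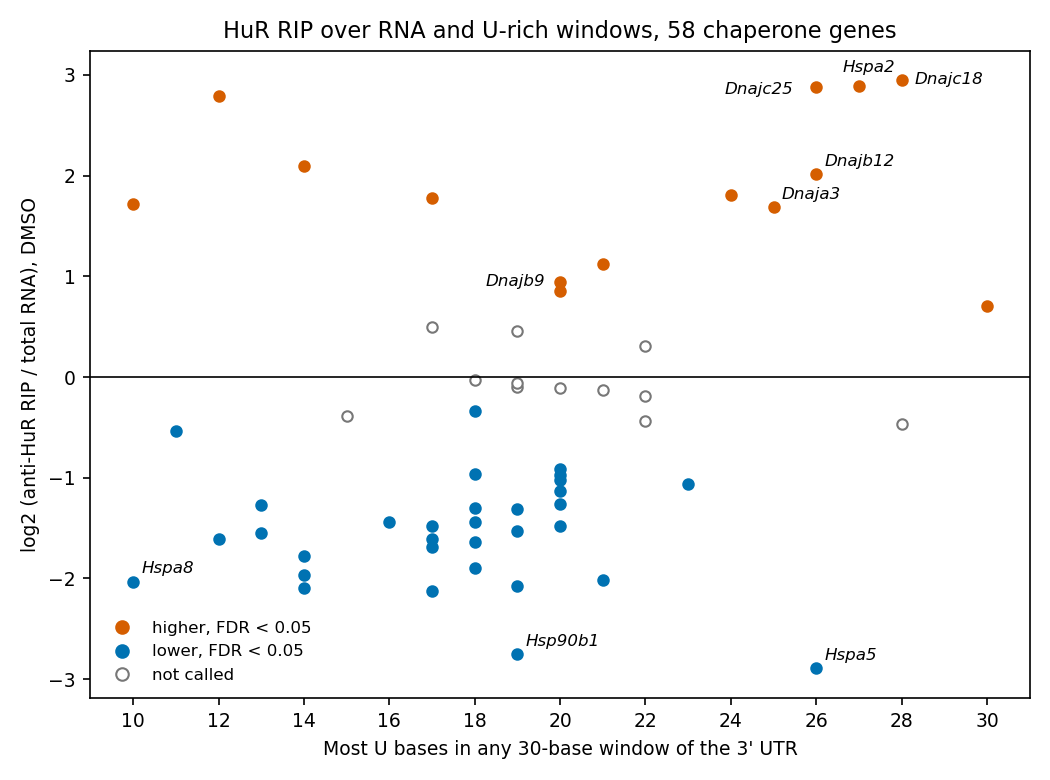
Log2 ratio of RIP to total RNA under DMSO (vertical) against the most U in any 30 bases of the 3' UTR (horizontal) for 58 members, coloured by call. Members called higher had a median of 22.5 U and those called lower 18, with Hspa5, at 26 U, low in the RIP.

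Against IgG, Dnajc25, Dnajb12 and Dnaja3 were higher in the RIP, and Hspa5, Hsp90b1, Hspd1 and Hspa8 lower. This comparison uses the same RIP libraries as the one with total RNA and adds no separate evidence on them. The fit over 12 RIP and 3 IgG libraries, with treatment as a covariate, called 46 of 59 members, 13 higher and 33 lower, where 68.1% of all genes were called, 33.8% higher and 34.2% lower. The ratio to IgG was 2.88 ± 0.18 for Dnajc25 (FDR 1.07e-10), 2.40 ± 0.20 for Dnajb12 and 1.80 ± 0.20 for Dnaja3. It was -2.94 ± 0.21 for Hspa5 (FDR 5.44e-10), -2.47 ± 0.17 for Hsp90b1, -2.41 ± 0.19 for Hspd1 and -2.36 ± 0.19 for Hspa8.

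The abundant chaperone mRNAs were not scarce in the IgG libraries. Hspa5 was at 1096, 2568 and 5014 CPM in the IgG libraries of the 3 treatments, where the total RNA means were 1024 ± 106, 1804 ± 326 and 3691 ± 819.8 CPM. Dnajb9 was at 6.84, 27.5 and 62.9 CPM in IgG. Members took 1.68%, 2.14% and 2.84% of all counts in the 3 IgG libraries and 0.341 ± 0.046%, 0.362 ± 0.091% and 0.504 ± 0.096% (SD, n = 4) in the RIP. With 1 IgG library a treatment, these values have no replicate check. On library totals alone the split against IgG was 8 higher and 45 lower, where 19.4% of all genes were higher and 55.8% lower, with a median of -1.02; Hspa13 and Dnajc14, called higher with TMM scaling, then had -0.36 and -0.39.

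**Figure D5:**
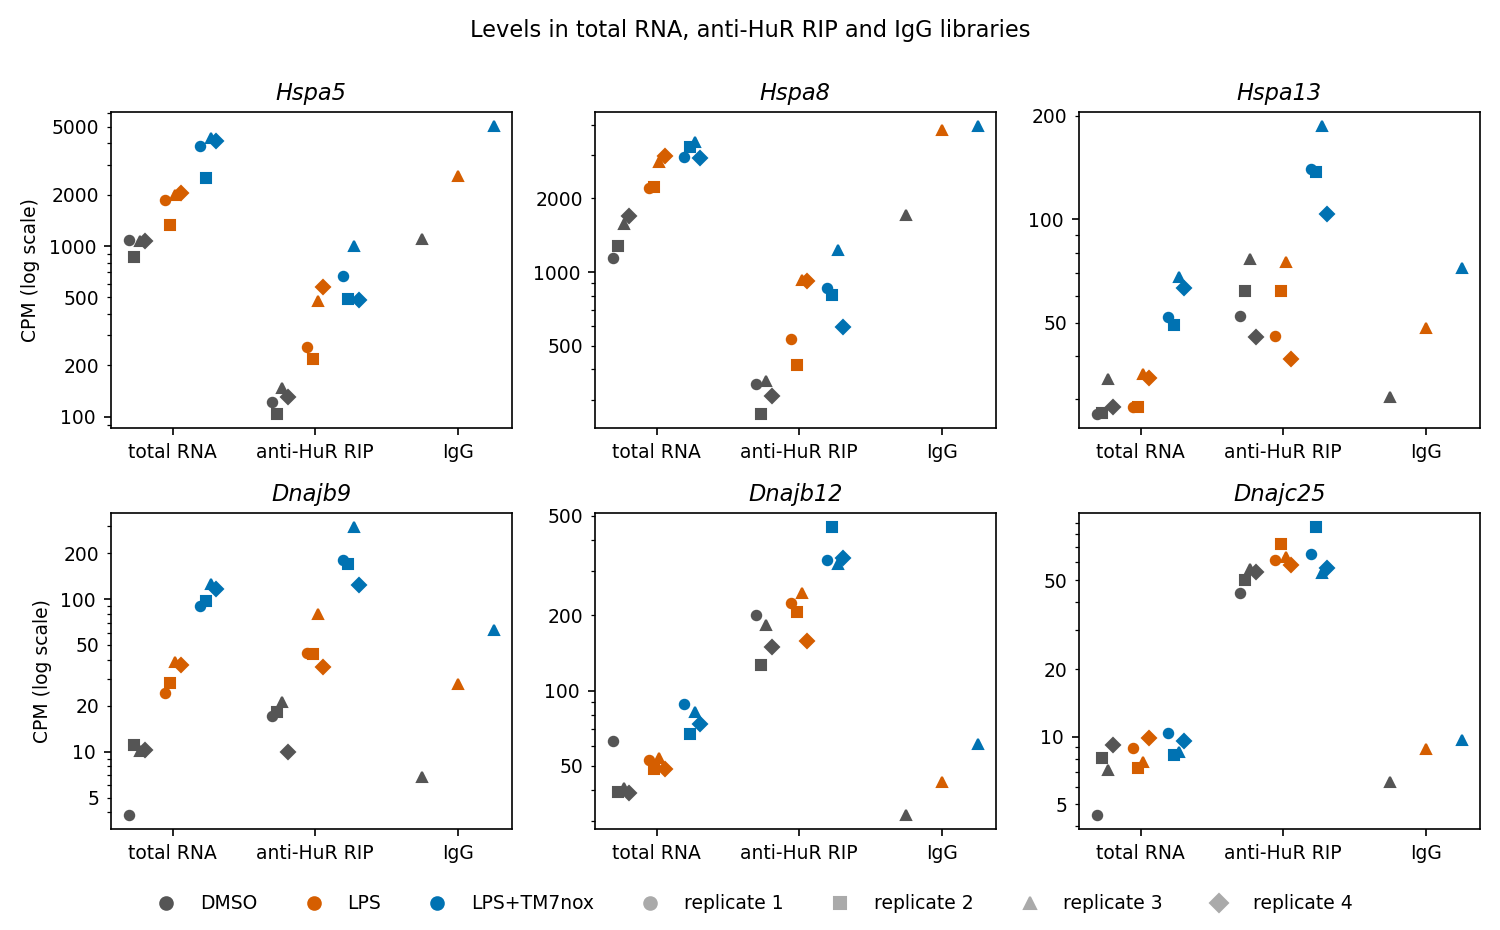
Levels in CPM on a log axis for selected members in total RNA, anti-HuR RIP and IgG libraries of each treatment; each point is 1 library. Hspa5 lay lower in the RIP than in total RNA and IgG, and Dnajc25 higher.

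Within the RIP itself, Hspa1b, Dnajb1, Dnajb9 and Hspa5 rose under LPS, and Dnajb14 fell. Of 58 tested, 28 were called, 23 higher and 5 lower, where 44.7% of all genes were called, 23.5% higher and 21.2% lower. The median was 0.36 over the members and 0.00 over all genes. Hspa1b went from 1.35, 1.08, 1.34 and 1.72 to 4.63, 3.83, 8.90 and 10.8 CPM (log2 fold change 2.33 ± 0.37, FDR 1.02e-04), and Dnajb1 from 9.32, 5.47, 8.67 and 9.11 to 24.4, 19.1, 37.4 and 38.2 CPM (log2 fold change 1.84 ± 0.27, FDR 5.44e-05). Neither gene's groups overlapped. Of the 10 heat shock factor targets tested, 8 rose and 0 fell, with a median of 1.03; on library totals alone 4 rose, with a median of 0.40. Dnajb9 rose by 1.57 ± 0.27, Hspa5 by 1.56 ± 0.29, Hsp90aa1 by 1.26 ± 0.21 and Dnaja1 by 1.24 ± 0.22. Hspa8, Hspa9, Hsp90ab1, Hspe1 and Hsph1 rose by 1.09, 1.06, 0.97, 0.92 and 0.72. Hsp90b1 passed narrowly, at 0.56 ± 0.22 (FDR 0.0498), and lost its call without any 1 of 10 libraries, all but LPS replicate 2 and TM7nox replicate 3; without LPS replicate 4 the value was 0.30. Hspd1 had 0.54 ± 0.25 (FDR 0.0939) and was called with the replicate block, at 0.51.

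On the low side, Dnajb14 went from 71.1, 124, 99.7 and 97.1 to 16.7, 29.7, 12.9 and 12.7 CPM in the RIP (log2 fold change -2.48 ± 0.36, FDR 4.36e-05), and Dnajc9 and Dnajc22 fell by 1.14 and 1.05. The scarce Dnajc28 and Dnajb13 also fell, by 1.81 and 1.70. Of the members called higher, 15 were shared between the assays, 88.2% of the 17 in total RNA and 65.2% of the 23 in the RIP; over all genes these shares were 83.4% and 65.1%. Of those called lower, 3 were shared (Dnajb14, Dnajc9 and Dnajc22), 37.5% of 8 and 60% of 5, beside 65.8% and 61.3% over all genes. Dnajc2, a ribosome-bound DnaJ protein named after its values were seen, fell in total RNA (-0.35 ± 0.11, FDR 0.0146) and was called higher in the RIP (0.40 ± 0.16, FDR 0.0481), where library totals alone turned it to -0.22. All 8 TRiC subunits rose in the RIP, with 2 called on library totals alone. The split depended on scaling: on library totals alone it was 7 higher and 17 lower, where 9.54% of all genes were higher and 47.2% lower, with a median of -0.63. Hspa8, Hspa9, Hsp90ab1, Hspe1 and Hsph1 then lost their calls, at 0.47, 0.43, 0.34, 0.30 and 0.08, among 11 such members, and 5 called members changed sign, Hsp90b1 to -0.055, Dnajc2, Dnajc1, Dnajc5 and Dnajc16. Replicates 1 and 2 alone called 13 members, beside 24% of all genes.

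With TM7nox added to LPS, 9 of 58 members were called in the RIP, 7 higher and 2 lower, where 16.2% of all genes were called, 8.64% higher and 7.61% lower. The median was 0.07 over the members and -0.03 over all genes. Dnajb9 went from 44.3, 43.7, 79.5 and 35.9 to 181, 171, 295 and 123 CPM (log2 fold change 1.95 ± 0.27, FDR 2.15e-04), and Hspa13 from 45.9, 62.0, 75.2 and 39.3 to 140.1, 138, 186 and 104 CPM (log2 fold change 1.39 ± 0.21, FDR 3.84e-04). In all 9 called members the groups did not overlap, beside 78.8% of the 2212 genes called in all. Dnajb4 rose by 1.41 ± 0.18, Hspa4l by 1.21 ± 0.25, Dnajb12 by 0.83 ± 0.19, Dnajb2 by 0.68 ± 0.21 and Dnaja3 by 0.63 ± 0.19. Dnajc9 fell, by 1.06 (FDR 0.0126), and so did the mitochondrial cochaperonin Hspe1, from 51.3, 45.7, 61.7 and 59.5 to 38.4, 31.2, 40.3 and 14.3 CPM (log2 fold change -0.80 ± 0.22, FDR 0.0195). The call of Hspe1 was lost without LPS replicate 4 (-0.73) or TM7nox replicate 2 (-0.77).

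Of the members that rose with TM7nox, 6 were shared between total RNA and RIP (Dnajb2, Dnajb4, Dnajb9, Dnajb12, Hspa4l and Hspa13), 66.7% of 9 and 85.7% of 7, beside 61.1% and 47.4% over all genes. Hspa5 was at 256, 217, 474 and 578 CPM in the RIP under LPS and at 670.2, 491, 1000 and 485 CPM with TM7nox. These groups overlapped, and the log2 fold change of 0.82 ± 0.29 had FDR 0.0600. Hsp90ab1 had 0.77 ± 0.27 (FDR 0.0590), Hsph1 0.52 ± 0.19 (FDR 0.0786) and Dnajb1 -0.62 ± 0.26 (FDR 0.125). With the replicate block these 4 were called, at 0.88, 0.83, 0.54 and -0.62, and so were Hspa1b and Hsp90aa1, at 0.67 and 0.42. Leaving out 1 library also made calls: Hspa5 without TM7nox replicate 2 (0.97) or LPS replicate 4 (1.13), Hsp90ab1 without TM7nox replicate 1 (0.86), DMSO replicate 2 (0.78) or LPS replicate 3 (0.995), Hsph1 without LPS replicate 3 (0.72), Hsp90b1 without LPS replicate 4 (0.65) and Dnajb1 without TM7nox replicate 3 (-0.85). All 10 genes of the endoplasmic reticulum list, chosen with earlier results known, had positive values, 3 of them called, with a median of 0.62. The block gave 26 members, 16 higher and 10 lower, beside 33.6% of all genes, and DESeq2 gave 16 beside 20.9%. The heat shock factor targets had 1 higher and 1 lower of 10, or 5 and 2 with the block. Replicates 1 and 2 alone gave 5 beside 5.59%, and replicates 3 and 4 alone 4 beside 7.87%. Among the regulators, Hsf2 rose by 1.11 while Hsf1 fell by 0.48 and Hsbp1, a binding partner of heat shock factors, by 0.62.

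The last question was whether the ratio of RIP to total RNA itself changed with treatment, tested as an interaction over the 24 libraries. By edgeR's quasi-likelihood test 0 of 59 members were called for LPS against DMSO, with 7 at an unadjusted p under 0.05 and a lowest FDR of 0.365; over all genes 0.0419% were called. The 7 were Dnajb13, Dnajb14, Dnajc2, Dnajc18, Hsp90aa1, Hspa9 and Hspa14. DESeq2 called 1 member, Dnajc2 (adjusted p = 0.00315), beside 0.433% of all genes; edgeR's value for it was 0.63 ± 0.19 (FDR 0.365). For TM7nox with LPS against LPS alone 0 were called by either tool, with 1 at an unadjusted p under 0.05 (Dnajc2) and a lowest FDR of 0.871; over all genes 0.00699% were called. The interaction values of the members ran from -2.07 to 0.99 on the log2 scale for LPS and from -0.91 to 0.78 for TM7nox. Their median SE was 0.31 in both, and the interval around the median member's estimate reached 0.60 to either side on the log2 scale. A p that misses the threshold does not show that the ratio stayed the same.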

How the data were processed

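Raw read counts per gene were deposited by the authors as 1 table of 27 libraries, whole numbers with no normalization. The labels' protocols give TRIzol extraction from beads (RIP) or cell pellets (RNA), 7 ng of RNA and a SMART-Seq Stranded kit; the submitters' processing notes name FastQC 0.11.9, STAR, HTSeq, DESeq2 and GRCm39, with no roles. The sources used here give neither the annotation release nor whether the counting used strand.

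Counts were fitted across all genes with edgeR 4.0.16 (limma 3.58.1, R 4.3.3): TMM scaling, filterByExpr with a minimum count of 10, quasi-likelihood F tests and Benjamini-Hochberg adjustment over all genes tested, called at FDR under 0.05. Total RNA (12 libraries), RIP (12), both (24), and RIP with IgG (15, treatment as covariate) were fitted separately, giving 11 comparisons. Each SE is the absolute log2 fold change divided by the square root of the test's F. It rests on a spread estimated over all libraries of that fit, not only over the groups compared. CPM use 1 TMM scale over 27 libraries. The scripts were tested on simulated data. Of 100 genes changed by 1 on the log2 scale, 70 were recovered for LPS in total RNA and 59 in the RIP. For RIP over total RNA under DMSO 77 were recovered, and against IgG 10. At a change of 2 these were 97, 100, 100 and 76. Of the calls, 2.45 to 5.49% were false. The tests of a change of the ratio were not simulated. Coordinates come from GENCODE M39 (GRCm39), promoter windows from RefSeq (GRCm38.p6, 58 of 73 members matched). The labels name no molecular identifiers, so counts of PCR products are not independent molecules.

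Members and lists were chosen with earlier results of these data known. Named in full were a panel of 14 genes and, per comparison, up to 5 called members with the largest change in each direction at a mean of 1 CPM or more; others are named within their class, and 1 member is counted but not reported here by name. Same-numbered libraries deviated together from their group means (r 0.143 to 0.364 in 12 of 12 pairs of total RNA and 0.216 to 0.506 in 12 of 12 of RIP, threshold 0.1; 34 of 36 pairs across assays), so the numbers pair the samples and the fit with replicate number as a block is given where it changed a call. Calls, FDRs and shares given without mention of the block ignore this pairing. That fit was kept as the main one because the labels do not say what a number shares. Alternatives were that block, DESeq2's size factors (RLE), library totals alone, no filter, DESeq2 1.42.0, each library left out, replicates 1 and 2 or 3 and 4 only, and Hspa1a and Hspa1b summed.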

Additional observations from a re-analysis of the deposited data

Results flagged for a closer look

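The highest or lowest of 4 libraries stood far from the other 3 in 15 of 192 groups tested over 32 named members, where chance alone marks about 1 in 20 groups. In total RNA under DMSO, replicate 1, the shallowest library, was apart in 4 genes. Dnajb9 was at 3.852 CPM there with the others at 10.06 to 11.07, and Dnajc18 at 5.778 with the others at 11.53 to 12.4. Dnajb12 was at 62.7 CPM with the others at 38.93 to 40.66, and Hspb6 at 8.987 with the others at 2.131 to 3.047. Replicate 2 of the same group had Hspa5 at 865.2 CPM with the others at 1064 to 1090. Under LPS, replicate 1 of total RNA had Hspa4l at 16.01 CPM with the others at 28.76 to 31.39. With TM7nox, replicate 2 of total RNA had Dnajb5 at 2.977 CPM with the others at 4.063 to 4.131.

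In the RIP under DMSO, replicate 2 had Dnajb1 at 5.473 CPM with the others at 8.668 to 9.316. Replicate 3 of that group had Dnajb5 at 2.463 CPM (others 1.984 to 2.032) and Hsph1 at 81.94 CPM (others 57.03 to 60.8). Replicate 3 of the RIP under LPS had Hspa2 at 10.28 CPM with the others at 6.345 to 6.631. In the RIP with TM7nox, replicate 3 had Hspa9 at 591.9 CPM with the others at 311.4 to 316.3, and replicate 2 had Dnajb12 at 448.9 with the others at 321.6 to 338. Replicate 4 had Dnajb4 at 13.73 CPM with the others at 25.61 to 27.7, and replicate 1 had Hspb6 at 1.248 with the others at 0.07585 to 0.2011.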

How the results depend on the processing

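In total RNA, the members called numbered 7 for LPS against DMSO in replicates 1 and 2 only. For LPS with TM7nox against LPS they numbered 17 with the replicate block, 1 in replicates 1 and 2 and 17 in replicates 3 and 4, and against DMSO 17 in replicates 1 and 2. In the RIP they numbered 13 for LPS against DMSO in replicates 1 and 2, and for TM7nox 26 with the block, 16 with DESeq2, 5 in replicates 1 and 2 and 4 in replicates 3 and 4. DESeq2 called 1 member for the change of the ratio by LPS. The splits hold fewer samples, and the cause of these differences was not tested. Leaving out each library in turn gave 21 to 27, 8 to 12 and 27 to 32 members called in the 3 comparisons of total RNA, 19 to 28 and 7 to 11 in the 2 of the RIP, and 44 to 47, 41 to 44 and 42 to 45 for RIP over total RNA under DMSO, LPS and LPS with TM7nox. It gave 41 to 47 against IgG and 0 for both changes of the ratio. The shares of all genes called with each library left out are not given here, so these counts have no background beside them.

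Among the values of the panel and of the largest changes per comparison, the changes of the ratio aside, 16 changed sign, of which 1 was called in the fit reported, Hsp90b1 for LPS in the RIP; the cause was not tested. Over all members called, library totals alone turned 5 for LPS in the RIP, 1, 5 and 2 over total RNA under DMSO, LPS and LPS with TM7nox, and 2 over IgG, all of them called higher with TMM; DESeq2's size factors turned 0. On library totals alone, LPS against DMSO in total RNA gave Hspa9 -0.17, Hsp90b1 -0.25 and Hspe1 -0.036, the RIP gave Hsp90b1 -0.055 and Hspd1 -0.091, and TM7nox against DMSO in total RNA gave Hspe1 -0.31, with -0.15 in replicates 3 and 4 only. In replicates 1 and 2 only, TM7nox against LPS in the RIP gave Hspd1 0.16 and Dnaja1 0.0011. With 1 library left out, Hsp90b1 for LPS against DMSO in total RNA ran from -0.02 to 0.091, Hspe1 for TM7nox against DMSO from -0.15 to 0.10, and Hspa9 for TM7nox in the RIP from -0.17 to 0.22. Over all alternatives of these values and of the change of Dnajc2's ratio by LPS, 3871 kept their direction and their side of the threshold, 37 came to pass it, 87 no longer did and 16 changed sign. Of 12 panel members, none called, 4 changed sign under some alternative for the change of the ratio by LPS (Hspa1b, Hspa8, Hsph1 and Dnaja1) and 6 for that by TM7nox (Hspa8, Hspa5, Hsp90aa1, Hsp90b1, Hspd1 and Dnaja1).

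Beside the members named with it in the report, the replicate block made calls for Dnajc10 (-0.23), Dnajc15 (0.31), Dnajc16 (0.36), Dnajc18 (0.45) and Dnajc3 (-0.39) (LPS against DMSO, total RNA), Dnaja3 (0.39), Dnajc11 (-0.29) and Dnajc19 (-0.38) (TM7nox against LPS), Dnajc19 (-0.60), Dnajc24 (-0.59) and Hspb11 (0.72) (TM7nox against DMSO), Dnajc14 (0.32), Dnajc7 (0.37) and Hspa12b (-0.55) (LPS against DMSO, RIP) and Dnajb14 (0.80), Dnajc10 (0.38), Dnajc11 (-0.43), Dnajc15 (-0.58), Dnajc18 (0.44), Dnajc19 (-0.57), Dnajc2 (-0.45), Dnajc4 (-0.62), Dnajc5 (-0.46), Hspa12b (-0.76) and Hspa2 (0.58) (TM7nox against LPS, RIP). Over total RNA it made calls for Hspa4l (-0.44) and Hspb6 (-1.19) under LPS and Dnajb4 (-0.50), Dnajb6 (-0.29) and Dnajc10 (0.24) with TM7nox, and over IgG for Dnajb11 (0.37), Dnajb13 (-1.80), Dnajc12 (0.81) and Dnajc24 (0.46), where Dnajb4 and Hspb11 lost theirs, at -0.34 and -0.70. It changed the call of no other member reported by name. The 14 members never tested stayed at or below 0.524 CPM in every library, and the shallowest total RNA library held 2728534 counts. Whether depth kept them from being tested was not tested.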

Other observations

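The values of 3 further members, chosen after they were seen, are given here. Hspb11, counted with the small heat shock proteins by name and known as a subunit of the transport machinery of cilia, stood at 2.80 ± 1.49 CPM (SD, n = 4) in total RNA under DMSO and at 4.99 ± 1.07 CPM with LPS and TM7nox. Hspa14, which fell under LPS in total RNA, was at 19.7 ± 2.55, 10.9 ± 1.27 and 9.87 ± 1.54 CPM in the 3 treatments, and at 5.69 ± 0.801, 4.90 ± 1.03 and 3.98 ± 0.509 CPM in the RIP, where its change by LPS was -0.25 ± 0.19 (FDR 0.310, edgeR). Dnajb14 was lower under LPS in both assays and higher in the RIP than in total RNA in all 3 treatments, at 1.81, 0.88 and 1.43 on the log2 scale after TMM scaling; on library totals alone these were 1.03, -0.13 and 0.39, the first called.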
